A study of Mus musculus with 16 samples.

Results

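The RGS genes encode regulators of G protein signalling, and 10 of them were followed here across mouse lungs: Rgs1, Rgs2, Rgs3, Rgs4, Rgs5, Rgs10, Rgs14, Rgs16, Rgs18 and Rgs19. They were taken by gene symbol from a table of 16380 genes, all 10 were listed in it, and 8 further genes named Rgs with a number were listed and are treated only as company. Whole lung RNA was sequenced from IL-31RA knockout mice (KO) and wildtype mice (WT, littermates in the study's methods) of the C57BL/6 background, given bleomycin (Bleo) or saline (Sal), with 4 libraries in each of the groups KO-Bleo, WT-Bleo, KO-Sal and WT-Sal. In the study's methods bleomycin was given as intradermal doses of 6 U/kg on 5 days a week for 4 weeks, saline was the control injection, lungs were taken on day 28, and mice of both sexes were 10 to 18 weeks old. The knockout removes exons 4 to 6 of Il31ra, the gene of the interleukin-31 receptor, in every cell of the mouse. The labels do not say that each library came from its own mouse, so p-values measure the spread between these libraries only.

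A G protein coupled receptor turns on its G protein by loading the alpha subunit with GTP, and an RGS protein speeds the hydrolysis of that GTP, so that the signal ends sooner. Most of the 10 are small proteins of the R4 subfamily, made of little more than the RGS domain, and act on the Gi and Gq classes of alpha subunits. In the lung, Rgs5 is known as a gene of pericytes and smooth muscle, Rgs1 and Rgs18 as genes of leukocytes and platelets, and Rgs2 as a gene that many cells turn on soon after stimulation.

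Recovered read totals spanned 1234594 to 21810640 for KO-Bleo and 604134 to 32153698 for WT-Bleo. For the saline groups they spanned 15538872 to 17740863 (KO-Sal) and 7790575 to 23481714 (WT-Sal). The 2 shallow libraries were KO-Bleo replicate 15, with 1234594 reads, and WT-Bleo replicate 6, with 604134, and the other 14 held at least 7790575. Values are RPKM, reads scaled to transcript length and library size, so levels can be compared between genes. A gene was called where limma's adjusted p (Benjamini-Hochberg over 16380 genes) was under 0.05 on log2(RPKM + 1), a scale that understates changes of low genes. The targeted gene Il31ra was near its limit of detection, with 2 to 9 reads per KO-Bleo library, 0 to 13 per WT-Bleo library, 2 to 3 per KO-Sal library and 5 to 17 per WT-Sal library. Its mean RPKM was 0.171 in KO-Bleo, 0.111 in WT-Bleo, 0.0403 in KO-Sal and 0.185 in WT-Sal. The genotypes overlapped under bleomycin, where the highest KO-Bleo value (0.441 RPKM, replicate 15) rested on 2 reads, and did not overlap under saline. The table counts the whole gene, of which the knockout removes only part, and exons of Il31ra overlap those of Gm3226 on the same strand. The reads of Il31ra are therefore a weak check of the labels.

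Under saline the 10 genes spanned a wide range of levels. Rgs2 and Rgs10 were the highest in every group by mean RPKM, at 22.6 and 17.3 RPKM in KO-Sal and 19.2 and 17.7 RPKM in WT-Sal, and the ranges of these 2 neighbours overlapped in each group. Rgs3 and Rgs19 came next in both saline groups, at 9.86 and 9.36 RPKM in KO-Sal and 8.99 and 9.82 RPKM in WT-Sal, again overlapping. Rgs16 was the lowest gene in both saline groups, at 0.937 ± 0.319 RPKM in KO-Sal and 0.663 ± 0.243 RPKM in WT-Sal (SD, n = 4 each). Rgs5 was at place 7 of the 10 in KO-Bleo and at place 6 in KO-Sal, but at place 3 in WT-Bleo, where its range met that of Rgs4 at 14.7 RPKM, and at place 7 in WT-Sal.

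Among the 10 RGS genes, chosen with earlier results of these data known, bleomycin raised more than it lowered. In WT-Bleo against WT-Sal 6 of the 10 genes were called and all 6 were higher, where 30.9% of all tested genes were called and 18.6% were called higher. The groups did not overlap for 5 of the 10, against 34.1% of all genes, and the median log2 change of the 10 was 0.46 where that of all genes was 0.01. In KO-Bleo against KO-Sal 4 of the 10 were called, all higher, where 23.6% of all genes were called and 13.2% were called higher. There 4 of the 10 did not overlap, against 28.1% of all genes, and the medians were 0.35 for the 10 and -0.01 for all genes. In KO-Bleo against WT-Bleo 1 gene of the 10 was called, Rgs5, and it was lower, where 0.214% of all genes were called and 0.0916% were called lower. The groups did not overlap for 3 of the 10 (Rgs4, Rgs5 and Rgs16, each lower in KO-Bleo), against 8.48% of all genes. These 3 are genes the study itself named for this contrast on these libraries, so their direction here is no independent evidence. In KO-Sal against WT-Sal limma called 0 of the 10, as did limma-voom on reads, where 0.0488% of all genes were called, and 1 of the 10 had an unadjusted p under 0.05 (Rgs18), as did 2659 of all genes. No RGS gene separated KO-Sal from WT-Sal without overlap, against 9.66% of all genes. The comparisons share groups with each other, so their results are not independent.

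**Figure D1:**
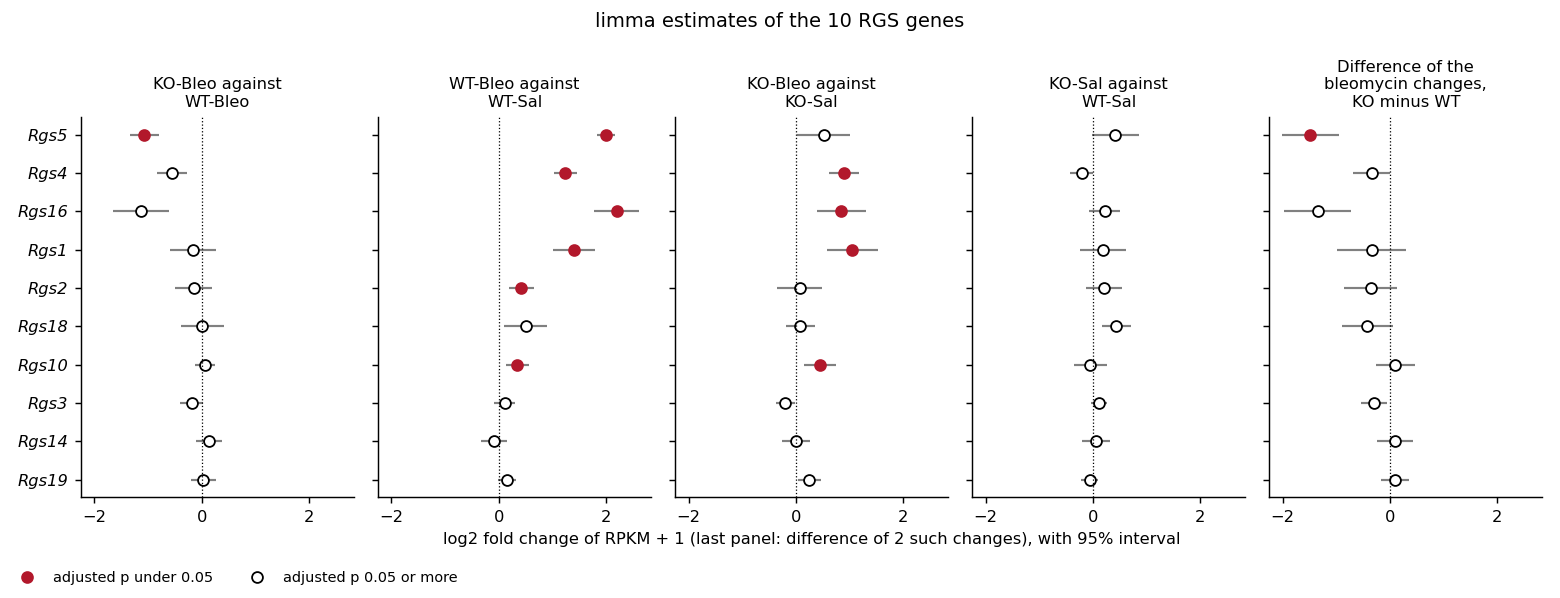
Estimates of limma for the 10 RGS genes in 5 panels, which show genotype under bleomycin (KO-Bleo against WT-Bleo), bleomycin in each genotype (first wildtype, then knockout), genotype under saline (KO-Sal against WT-Sal), and the knockout change minus the wildtype change. Each point is a log2 fold change of RPKM + 1 with its 95% interval, filled where the adjusted p was under 0.05: 1, 6, 4, 0 and 1 of the 10 are filled, with Rgs5 the filled point of the first and last panels.

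Rgs5, which in other work marks pericytes and dampens Gq and Gi signals in the vessel wall, was the one member called in KO-Bleo against WT-Bleo. In RPKM its levels were 7.72, 6.37, 5.17 and 8.28 in KO-Bleo, against 15.2, 15.3, 16.1 and 14.7 in WT-Bleo. Under saline they were 4.85, 6.21, 5.19 and 2.36 in KO-Sal, against 3.05, 2.71, 3.38 and 3.16 in WT-Sal. Every WT-Bleo library was therefore above every other library of the series, all KO-Bleo libraries lay between those of WT-Bleo and WT-Sal, and 1 of them, replicate 15 with 29 reads, lay within the range of KO-Sal. The means were 6.88 ± 1.4 in KO-Bleo, 15.3 ± 0.571 in WT-Bleo, 4.65 ± 1.63 in KO-Sal and 3.07 ± 0.28 in WT-Sal (RPKM, SD, n = 4 each).

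Rgs5 fell in KO-Bleo relative to WT-Bleo, to 0.449 of the mean RPKM, a log2 fold change of -1.07 (SE 0.12, 95% interval -1.34 to -0.79, limma adjusted p = 0.0184). It rose in WT-Bleo relative to WT-Sal, to 4.99 times the mean RPKM, with a log2 fold change of 2 (SE 0.08, adjusted p = 2.93e-07). In KO-Bleo against KO-Sal it was at 1.48 times the mean RPKM, the groups overlapped and the change of 0.52 was not called (SE 0.22, interval 0.02 to 1.01, adjusted p = 0.12), though it was called with library quality weights (0.60, adjusted p = 0.0313) and with a spread shared by all groups (0.52, adjusted p = 0.0446). Under saline the knockout had 0.42 more on the log2 scale than the wildtype (interval -0.01 to 0.85, adjusted p = 0.322), which was not called either. The call against WT-Bleo ended with upper-quartile scaling (adjusted p = 0.0707) and on leaving out KO-Bleo replicate 13 (0.0836) or 14 (0.0638) or WT-Bleo replicate 5 (0.0826), 7 (0.0546) or 8 (0.0527), with the log2 fold change between -1.15 and -0.96 over all 8 libraries left out. Without both shallow libraries it was -0.96 with an adjusted p of 0.00893. KO-Sal replicate 12 decided the saline result: without it the Rgs5 difference was 0.65 with an adjusted p of 0.00912, in a fit that called 722 of all genes, against 8 with every library.

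**Figure D2:**
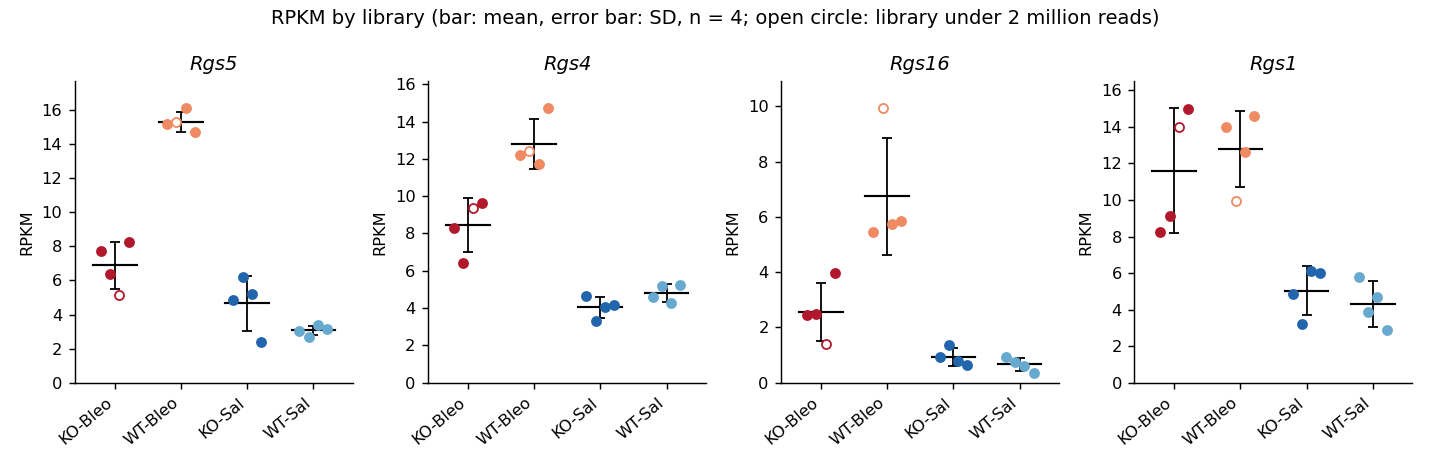
RPKM of Rgs5, Rgs4, Rgs16 and Rgs1 in each library, by group (KO-Bleo, WT-Bleo, KO-Sal, WT-Sal); points are libraries, bars are means and error bars are SDs of 4 libraries, and open circles are the 2 shallow libraries. Rgs5 lies between 14.7 and 16.1 RPKM in WT-Bleo, above the 5.17 to 8.28 RPKM of KO-Bleo, and Rgs1 overlaps between KO-Bleo and WT-Bleo.

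Rgs4 lies beside Rgs5, and both genes are on chromosome 1 of GRCm38 with a gap of 45.7 kb between them. Rgs5 spans chr1:169655501-169695813 on the plus strand, and Rgs4 spans chr1:169741477-169747642 on the minus strand. Rgs4 is best known as a brake on Gi and Gq signals in neurons and heart muscle. In RPKM it was at 8.28, 6.43, 9.36 and 9.63 in KO-Bleo, against 12.2, 12.4, 11.7 and 14.7 in WT-Bleo. Under saline it was at 4.64, 3.31, 4.07 and 4.15 RPKM in KO-Sal, against 4.58, 5.18, 4.27 and 5.23 RPKM in WT-Sal. All bleomycin libraries were above all saline libraries, and all KO-Bleo libraries were below all WT-Bleo libraries.

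Rgs4 rose with bleomycin in both genotypes, by a log2 fold change of 0.90 in KO-Bleo against KO-Sal (SE 0.13, adjusted p = 0.000907) and 1.24 in WT-Bleo against WT-Sal (SE 0.09, adjusted p = 1.48e-05). The ratios of mean RPKM were 2.08 in the knockout and 2.65 in the wildtype. Between KO-Bleo and WT-Bleo the ratio was 0.661 and the log2 fold change was -0.55 (SE 0.12, interval -0.83 to -0.28), which limma did not call (adjusted p = 0.123). The exact two-sided permutation test gave an unadjusted 0.0286, the smallest p that 4 against 4 allows. Every gene without overlap gets this p, so it only restates the lack of overlap. This difference was called by limma-voom (adjusted p = 0.00918), with library quality weights (0.022), with a spread shared by all groups (0.0231) and among genes with at least 10 reads in every library (0.0433). In KO-Sal against WT-Sal the log2 fold change of Rgs4 was -0.21 (interval -0.42 to 0.01, adjusted p = 0.321).

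Rgs16, a regulator of Gi signals that lymphocytes and other cells turn on when activated, had the largest ratio to saline of the 10 in the wildtype. In RPKM it was at 2.44, 2.47, 1.39 and 3.95 in KO-Bleo, against 5.46, 9.92, 5.75 and 5.84 in WT-Bleo. Under saline it was at 0.941, 1.38, 0.772 and 0.653 RPKM in KO-Sal, against 0.934, 0.745, 0.62 and 0.354 RPKM in WT-Sal. The extreme value of each bleomycin group came from its shallow library: 1.39 RPKM in KO-Bleo replicate 15 rested on 4 reads and 9.92 RPKM in WT-Bleo replicate 6 on 14 reads. The libraries of KO-Bleo and WT-Bleo did not overlap with or without these.

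Rgs16 rose in KO-Bleo relative to KO-Sal by 0.85 on the log2 scale (SE 0.20, adjusted p = 0.0142), 2.73 times the mean RPKM, and in WT-Bleo relative to WT-Sal by 2.20 (SE 0.18, adjusted p = 2.58e-05), 10.2 times the mean RPKM. In KO-Bleo against WT-Bleo the ratio of mean RPKM was 0.38 and the log2 fold change was -1.13 (SE 0.24, interval -1.66 to -0.60, adjusted p = 0.101, unadjusted exact permutation p = 0.0286). As for Rgs4, the exact p only restates the lack of overlap. The difference of Rgs16 was not called by limma alone. It was called by limma-voom (adjusted p = 0.00312), with a shared spread (0.0105) and with quality weights (0.0122), and without both shallow libraries it was -0.78 with an adjusted p of 0.0505. Rgs16 spans chr1:153740353-153745468 on the plus strand. Its exons overlap those of Gm28513 on the opposite strand, and with no statement on strand in the sources of the counting, reads of the 2 genes may not be told apart.

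The bases just before the start of transcription are shown for these 3 genes, since they are the members whose KO-Bleo and WT-Bleo libraries did not overlap; they are RefSeq sequences of GRCm38.p6, 100 bases each, 5′ to 3′ along the gene, at chr1:169747643-169747742 on the minus strand for Rgs4, chr1:169655401-169655500 on the plus strand for Rgs5 and chr1:153740253-153740352 on the plus strand for Rgs16. Capitals mark matches to a TATA box (TATAAA), a GC box (GGGCGG) or a CCAAT box (CCAAT) on either strand.
Rgs4: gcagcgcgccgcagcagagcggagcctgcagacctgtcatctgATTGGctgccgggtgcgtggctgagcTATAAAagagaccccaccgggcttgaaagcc
Rgs5: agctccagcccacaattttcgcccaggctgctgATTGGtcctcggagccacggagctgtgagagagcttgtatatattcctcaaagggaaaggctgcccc
Rgs16: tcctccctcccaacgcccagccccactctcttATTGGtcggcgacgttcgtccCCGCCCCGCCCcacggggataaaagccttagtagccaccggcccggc
A CCAAT box, searched only after these sequences had been seen, begins 57 bases before the start in Rgs4, 67 in Rgs5 and 68 in Rgs16. It is present in this 100-base window in 4 of the 7 members that have a promoter entry (Rgs2 is the other) and in 18.9% of 32851 promoters. Only Rgs4 of the 3 holds the exact letters TATAAA, which begin 31 bases before the start. Rgs5 holds the similar letters tatatat and Rgs16 the letters gataaaag, but looser forms of the TATA box were not searched for. Only Rgs16 has matches to GGGCGG, which begin 47 and 42 bases before the start and overlap. In windows of 300 bases TATAAA is present in 13.6% and GGGCGG in 35.7% of all promoters. The letters TTCNNNGAA, to which STAT factors bind, are present in 8.3% of all such windows and in none of the members' windows, and the same holds for the AP-1 letters TGANTCA at 7.81%. These matches are descriptions of the sequence and were not tested against the expression values.

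Rgs1, which in leukocytes limits migration towards chemokines, rose with bleomycin in both genotypes. In RPKM it was at 8.26, 9.12, 14 and 15 in KO-Bleo, against 4.83, 3.22, 6.1 and 6 in KO-Sal. In WT-Bleo it was at 14, 9.95, 12.6 and 14.6 RPKM, against 5.79, 3.87, 4.67 and 2.87 RPKM in WT-Sal. Neither genotype's bleomycin libraries overlapped with its saline libraries. The log2 fold change was 1.05 in KO-Bleo against KO-Sal (SE 0.21, adjusted p = 0.00604) and 1.40 in WT-Bleo against WT-Sal (SE 0.17, adjusted p = 0.000295). KO-Bleo and WT-Bleo overlapped, with a log2 fold change of -0.16 and an interval of -0.59 to 0.27 (adjusted p = 0.755). Rgs1 (chr1:144244669-144249104), Rgs18 (chr1:144752683-144775427) and Rgs2 (chr1:143999338-144004149) lie near each other on the minus strand of chromosome 1, which holds 6 of the 10 members, with 241 kb between Rgs1 and Rgs2 and 504 kb between Rgs1 and Rgs18.

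Rgs2, which acts mainly on Gq and lowers the tone of vessels, rose in WT-Bleo and was not called in KO-Bleo. Its levels were 17.4, 22.2, 32 and 23.8 RPKM in KO-Bleo, against 25.7, 15.8, 25.5 and 23.5 RPKM in KO-Sal, with overlap (log2 fold change 0.07, adjusted p = 0.836). In WT-Bleo they were 24.9, 28.6, 26.5 and 24 RPKM, against 20.7, 17.2, 22.6 and 16.5 RPKM in WT-Sal, without overlap (log2 fold change 0.42, SE 0.10, adjusted p = 0.0116). The highest value of each bleomycin group, 32 and 28.6 RPKM, was that of the shallow library. With a spread shared by all 4 groups the wildtype call ended (adjusted p = 0.0563). The difference of the 2 bleomycin changes was itself not called (-0.36, interval -0.85 to 0.13, adjusted p = 0.568).

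Rgs18, the RGS gene best known from platelets and megakaryocytes, had its lowest mean in WT-Sal (2.66 ± 0.562 RPKM, SD, n = 4), and no comparison passed the test. It was at 4.18, 4.48, 4.79 and 3.4 RPKM in KO-Bleo, against 3.7, 3.31, 4.88 and 3.82 RPKM in KO-Sal. It was at 3.56, 6.23, 4.13 and 3.12 RPKM in WT-Bleo, against 2.49, 2.43, 3.48 and 2.22 RPKM in WT-Sal. The groups overlapped in every comparison, in those with WT-Sal through its replicate 3 at 3.48 RPKM, and 6.23 RPKM in WT-Bleo replicate 6 rested on 7 reads. Its log2 fold change was 0.50 in WT-Bleo against WT-Sal (interval 0.10 to 0.90, adjusted p = 0.0597) and 0.43 in KO-Sal against WT-Sal (interval 0.16 to 0.71, adjusted p = 0.129). The wildtype difference was called on leaving out WT-Sal replicate 3 (0.60, adjusted p = 0.0444) or WT-Bleo replicate 8 (0.61, adjusted p = 0.0375), with a shared spread (0.0223) and with quality weights (0.0208). The 12 platelet markers summed to 54.7 to 87.1 RPKM in KO-Sal and 31.8 to 55.3 RPKM in WT-Sal with a narrow overlap. Of the 12 limma and limma-voom called 0 in KO-Sal against WT-Sal. There 5 were higher at an unadjusted p under 0.05, which 2659 of all 16380 genes had in either direction. In WT-Bleo the 12 markers summed to 37.5 to 44.8 RPKM, within the range of WT-Sal. Their part in the Rgs18 values was not tested.

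Rgs10, a small regulator of Gi signals that microglia and other macrophages express, was called higher after bleomycin in both genotypes by a small margin. It was at 24.2, 21.2, 24.1 and 25.2 RPKM in KO-Bleo, against 17, 16, 22.8 and 13.5 RPKM in KO-Sal. It was at 19.8, 24.6, 24.1 and 22.4 RPKM in WT-Bleo, against 20.1, 15.5, 19 and 16.3 RPKM in WT-Sal. Each pair overlapped by 1 library, KO-Sal replicate 11 at 22.8 RPKM and WT-Sal replicate 1 at 20.1 RPKM. The log2 fold changes were 0.45 in the knockout (SE 0.13, adjusted p = 0.0329) and 0.34 in the wildtype (SE 0.10, adjusted p = 0.024). Leaving out KO-Bleo replicate 13, 15 or 16, or else KO-Sal replicate 9, 10 or 12, ended the knockout call, and the wildtype call ended without WT-Sal replicate 2 or 4 or WT-Bleo replicate 7, with the highest adjusted p at 0.0794 and 0.0717. Without both shallow libraries the knockout call had an adjusted p of 0.055. The wildtype call also ended with median-of-ratios scaling (0.0516) and upper-quartile scaling (0.0693).

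Rgs19, Rgs3 and Rgs14 were called in no comparison. Rgs19, also known as GAIP and found on vesicles of the Golgi and endosomes, ranged over 9.81 to 13.7 RPKM in KO-Bleo, 10.3 to 12 RPKM in WT-Bleo, 8.93 to 9.76 RPKM in KO-Sal and 9.02 to 10.9 RPKM in WT-Sal. KO-Bleo and KO-Sal did not overlap for Rgs19, with a log2 fold change of 0.25 that was not called (interval 0.04 to 0.46, adjusted p = 0.0825). It was called without KO-Bleo replicate 14 (0.31, adjusted p = 0.0429), with a shared spread (0.0467) and with quality weights (0.0495). Rgs3, which has long and short forms and acts on Gi and Gq, ranged over 7.58 to 9.37 RPKM in KO-Bleo, 8.6 to 10.6 RPKM in WT-Bleo, 9.16 to 10.3 RPKM in KO-Sal and 8.24 to 9.64 RPKM in WT-Sal. It was the one gene of the 10 with a negative log2 value in KO-Bleo against KO-Sal (-0.20, with Rgs14 at 0.00 and Rgs2 and Rgs14 negative under other settings, interval -0.37 to -0.02, adjusted p = 0.0978), a difference called by limma-voom (-0.24, adjusted p = 0.0351) and with quality weights (0.0328). Rgs14, which carries a second G alpha binding site, the GoLoco motif, beside its RGS domain, ranged over 2.65 to 3.44 RPKM in KO-Bleo, 2.39 to 2.81 RPKM in WT-Bleo, 2.62 to 3.8 RPKM in KO-Sal and 2.5 to 3.37 RPKM in WT-Sal. The remaining members lie apart: Rgs3 at chr4:62559835-62703019, Rgs10 at chr7:128373621-128419506, Rgs19 at chr2:181688419-181694537 and Rgs14 at chr13:55369732-55384687. Chromosome 13 also carries Il31ra, 57.1 Mb from Rgs14, and for Rgs14 the 4 pairwise log2 fold changes lay between -0.09 and 0.14.

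**Figure D3:**
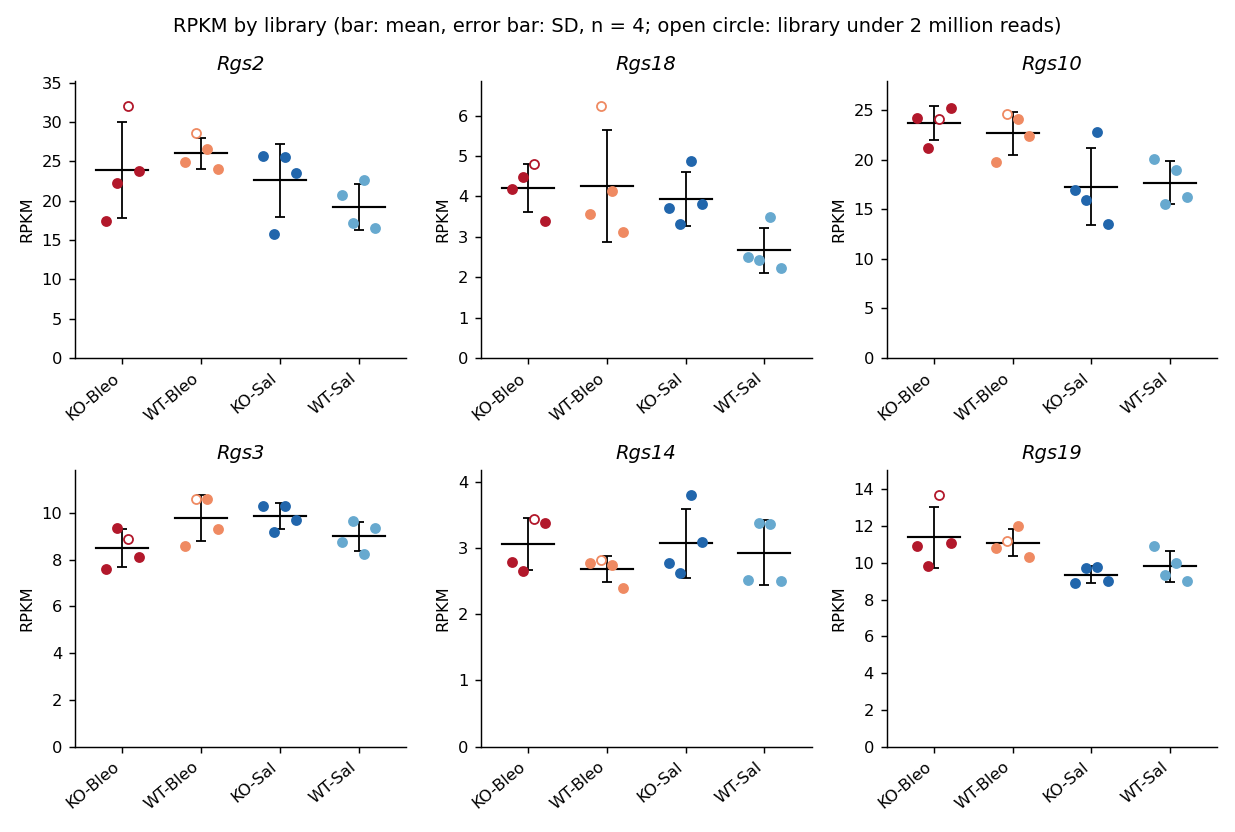
RPKM of Rgs2, Rgs18, Rgs10, Rgs3, Rgs14 and Rgs19 in each library, by group (KO-Bleo, WT-Bleo, KO-Sal, WT-Sal), with means and SDs of 4 libraries; open circles are the 2 shallow libraries. Rgs10 is higher in both bleomycin groups than in their saline groups apart from 1 library each, and Rgs14 stays between 2.39 and 3.8 RPKM in all 16 libraries.

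Whether bleomycin changed an RGS gene by a different amount in the 2 genotypes was tested as an interaction, which takes the bleomycin change in the knockout minus that in the wildtype. Rgs5 was the only one of the 10 called, where 0.22% of all genes were called: the difference was -1.49 (SE 0.25, interval -2.02 to -0.95, adjusted p = 0.0329), formed by changes of 0.52 in the knockout and 2 in the wildtype. With every library Rgs16 had a difference of similar size, -1.35 (SE 0.29, interval -1.97 to -0.73), which was not called (adjusted p = 0.0822). It was called without KO-Bleo replicate 16 (-1.52, adjusted p = 0.0359) and with quality weights (-1.07, adjusted p = 0.0184). Without both shallow libraries the Rgs16 difference was smaller in size, also than that of Rgs5 (-1.38), and was not called (adjusted p = 0.0803). For Rgs4 the difference was -0.34 (interval -0.69 to 0.00, adjusted p = 0.455), and for Rgs1 it was -0.34 (interval -0.98 to 0.29, adjusted p = 0.674). The sign was negative for 7 of the 10, with a median of -0.34 where all genes had -0.02. The Rgs5 call ended with upper-quartile scaling (-1.44, adjusted p = 0.0752), without both shallow libraries (-1.38, adjusted p = 0.0514) and on leaving out KO-Bleo replicate 14 or 15, KO-Sal replicate 9 or 11, WT-Bleo replicate 5 or WT-Sal replicate 1, 2, 3 or 4, with the adjusted p at most 0.0827 and the difference between -1.72 and -1.35.

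In bulk tissue, fewer cells of a type and less RNA per cell cannot be told apart, and this holds for each difference above. The 12 pericyte markers, a list without RGS genes, summed to 197 to 228 RPKM in KO-Bleo, 220 to 262 RPKM in WT-Bleo, 159 to 283 RPKM in KO-Sal and 236 to 298 RPKM in WT-Sal. The pericyte sums of WT-Bleo overlapped those of KO-Bleo and those of WT-Sal. Much of each sum came from Gucy1a3 and Gucy1b3, subunits of soluble guanylate cyclase, which averaged 58.7 and 50 RPKM in KO-Bleo, 58 and 50.2 RPKM in WT-Bleo, 63.7 and 47.6 RPKM in KO-Sal and 78.1 and 59 RPKM in WT-Sal. In WT-Bleo against WT-Sal, where Rgs5 rose, limma called 2 of the 12 higher, Pdgfrb (0.43, adjusted p = 0.0222) and Cspg4 (0.41, adjusted p = 0.0154), and 1 lower, Gucy1a3 (-0.43, adjusted p = 0.0107). Of all genes limma called 18.6% higher and 12.3% lower there, and the median log2 change of the 12 was -0.010. In that comparison limma-voom called 2 of the 12 higher and 4 lower, and 7084 of 16366 genes in either direction. None of the 12 was called in KO-Bleo against WT-Bleo by limma or limma-voom. There 2 were lower at an unadjusted p under 0.05, which 1825 of all 16380 genes had in either direction. Pdgfrb, the receptor for the growth factor that recruits pericytes, averaged 25.2 RPKM in KO-Bleo and 33.5 RPKM in WT-Bleo (-0.39 on the log2 scale, adjusted p = 0.182). Within KO-Sal the gene and the sum ran in opposite order at both ends: replicate 10 had the highest Rgs5 (6.21 RPKM) with the lowest pericyte sum (159 RPKM), and replicate 12 the lowest Rgs5 (2.36 RPKM) with the highest sum (283 RPKM). Replicate 10 also held an adipocyte marker sum of 1010 RPKM, where the other KO-Sal libraries had 116 to 143 RPKM. The part of these cells in the Rgs5 values of KO-Sal was not tested.

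All 10 smooth muscle markers were listed, and their sum was lower in every KO-Bleo library (169 to 255 RPKM) than in any WT-Bleo library (270 to 386 RPKM). In KO-Sal it was 184 to 259 RPKM and in WT-Sal 255 to 295 RPKM. None of the 10 was called in KO-Bleo against WT-Bleo by limma or limma-voom. There 6 were lower at an unadjusted p under 0.05, which 1825 of all 16380 genes had in either direction. In KO-Sal against WT-Sal limma and limma-voom also called 0 of the 10. There 5 were lower at an unadjusted p under 0.05, which 2659 of all genes had in either direction. Tagln, an actin binding protein of smooth muscle, was at 67 RPKM in KO-Bleo and 114 RPKM in WT-Bleo (-0.75 on the log2 scale, adjusted p = 0.119). The 10 fibroblast markers summed to 728 to 967 RPKM in KO-Bleo, 892 to 1040 RPKM in WT-Bleo, 565 to 720 RPKM in KO-Sal and 717 to 776 RPKM in WT-Sal. The 10 macrophage markers summed to 5414 to 6289 RPKM in KO-Bleo and 4136 to 4914 RPKM in WT-Bleo, sums that are mostly Lyz2 (means of 5422 RPKM in KO-Bleo and 4302 RPKM in WT-Bleo). Of these 10 limma called 0 in KO-Bleo against WT-Bleo, where 2 were higher at an unadjusted p under 0.05 and limma-voom called 2. The median log2 change of the 10 there was 0.067, so the difference of the sums mainly reflects Lyz2. No marker of these lists was at 0 in every library. In WT-Bleo against WT-Sal limma called 4 of 8 B cell, 6 of 10 T cell and 5 of 6 NK cell markers lower. It called 0 of them higher, where 12.3% of all genes were called lower. In KO-Bleo against KO-Sal it called 2, 0 and 1 of them lower and 0 higher, where 10.4% of all genes were called lower. The part of smooth muscle cells, fibroblasts, macrophages and lymphocytes in the differences of Rgs1, Rgs4, Rgs5 and Rgs16 was not tested.

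**Figure D4:**
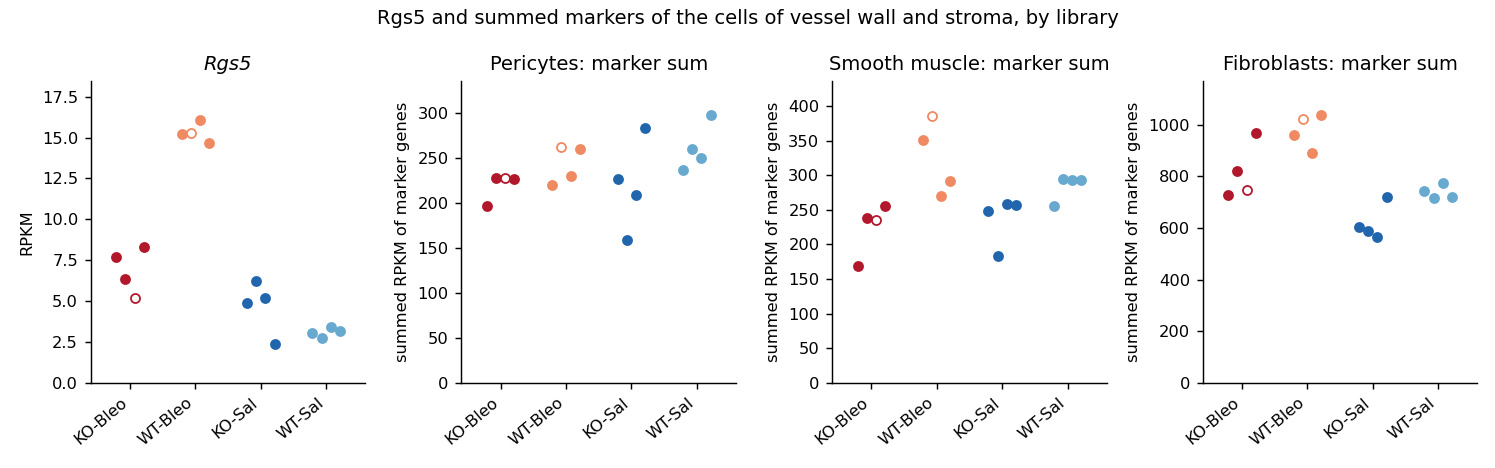
Rgs5 (RPKM) and the summed RPKM of 12 pericyte, 10 smooth muscle and 10 fibroblast markers in each library, by group (KO-Bleo, WT-Bleo, KO-Sal, WT-Sal); open circles are the 2 shallow libraries. Rgs5 is highest in the 4 WT-Bleo libraries, while the pericyte sums of WT-Bleo (220 to 262 RPKM) overlap those of KO-Bleo (197 to 228 RPKM) and of WT-Sal (236 to 298 RPKM).

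Among 13318 genes ranked by the correlation of log2(RPKM + 1) over the 16 libraries, which share treatment, genotype and depth, the gene most like Rgs5 was another member, Rgs16 (r = 0.946, and 0.949 over the 14 deeper libraries). Next to it stood Nrg1, a ligand of ERBB receptors, and Pla1a, a phospholipase (r = 0.941 each). Rgs4 was most like Armcx4 (0.978), Mmp13, a collagenase (0.975), and Pcdh7, a protocadherin (0.972). Rgs16 was most like Mark1, a kinase of microtubule proteins (0.974), Col28a1, a collagen chain (0.973), and Wfdc12 (0.960). Rgs1 was most like Lmnb1, a nuclear lamin (0.973), Ncstn, a gamma-secretase subunit (0.957), and Mcm3, a DNA replication helicase subunit (0.946). Rgs2 was most like Egr1 (0.901), an immediate early transcription factor, with Cyr61 (0.836) also among its first 3. Rgs10 was most like B2m (0.937), Igfbp2 (0.931) and H2-D1 (0.927), of which B2m and H2-D1 form class I antigen presenting molecules. The first genes for the remaining members were Ppp3cc for Rgs18 (0.922), Cox6c for Rgs19 (0.934), Psmb10 for Rgs14 (0.810) and Ddx51 for Rgs3 (0.779).

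Among the other genes with an RGS domain, those called after bleomycin were lower, and most were not called. There were 23 such genes in the table, among them the 8 further genes named Rgs with a number. The 10 members and this list were chosen with earlier results of these data known, so the contrast between them is no independent evidence. Of the 23, 8 were called lower and 0 higher in WT-Bleo against WT-Sal, with a median log2 change of -0.13, where 12.3% of all genes were called lower. In KO-Bleo against KO-Sal 6 were called lower and 0 higher, with a median of -0.15, where 10.4% of all genes were called lower. Arhgef12, an exchange factor with an RGS-like domain, fell by 0.44 in KO-Bleo (adjusted p = 0.00525), averaging 41.6 RPKM against 57.2 RPKM in KO-Sal, and fell by 0.50 in WT-Bleo (adjusted p = 0.000781), averaging 39.8 RPKM against 56.7 RPKM in WT-Sal. Axin2, a brake on WNT signals, fell by 0.65 in KO-Bleo (adjusted p = 0.00399) and by 0.69 in WT-Bleo (adjusted p = 0.00848). Rgs9, known from photoreceptors and striatum, fell by 0.85 in WT-Bleo (adjusted p = 0.000984) and had -0.37 in KO-Bleo against KO-Sal (adjusted p = 0.066). In KO-Bleo against WT-Bleo limma called 0 of the 23, where 3 had an unadjusted p under 0.05 and limma-voom called 2. Of all genes, 1825 of 16380 had such a p there and limma-voom called 581 of 16366. In both comparisons of bleomycin with saline 0 of the 23 were higher at an unadjusted p under 0.05. Of the 23, limma-voom called 10 lower and 0 higher in the knockout and 11 lower and 0 higher in the wildtype. Of all genes it called 4817 and 7084 of 16366 there, in either direction. Snx25, a sorting nexin, was the one gene of the 23 called in the interaction (0.40, adjusted p = 0.0329), with a positive sign where that of Rgs5 was negative.

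**Figure D5:**
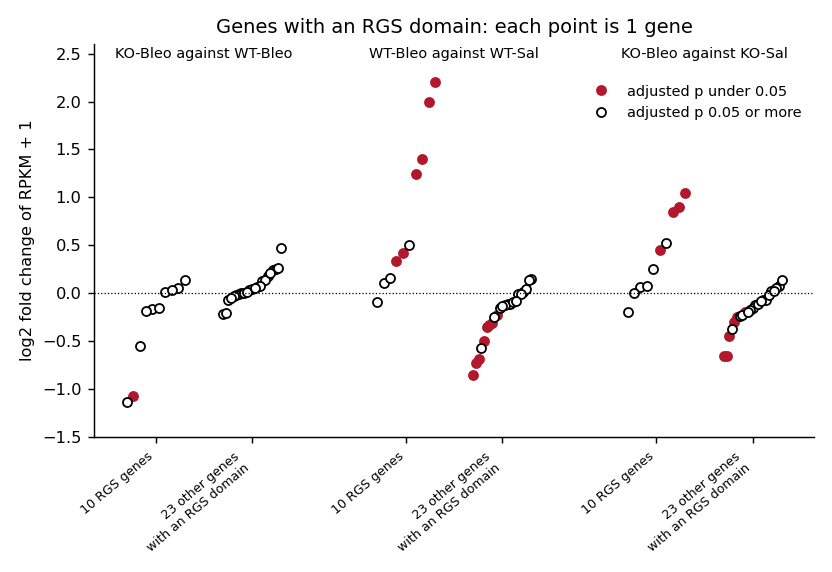
Log2 fold changes of RPKM + 1 for the 10 RGS genes and for 23 other genes with an RGS domain, for the genotypes under bleomycin and for bleomycin in the wildtype and in the knockout; each point is 1 gene, filled where the adjusted p was under 0.05. With bleomycin the filled points of the 10 are all above 0 (6 in the wildtype, 4 in the knockout), and those of the 23 are all below 0 (8 and 6). Both lists were chosen with earlier results of these data known.

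Genes of proteins that work with RGS proteins were counted in the same way, beside the 30.9% of all genes called in WT-Bleo against WT-Sal and the 23.6% called in KO-Bleo against KO-Sal. No share of these lists was tested against that of all genes. An unadjusted p under 0.05 was found for 6722 of all 16380 genes in WT-Bleo against WT-Sal, 6068 in KO-Bleo against KO-Sal and 1825 in KO-Bleo against WT-Bleo. In the same 3 comparisons limma-voom called 7084, 4817 and 581 of 16366 genes. Of 13 listed genes of G alpha subunits, the substrates of RGS proteins, 4 were called higher and 2 lower in WT-Bleo against WT-Sal, and limma called 0 in KO-Bleo against KO-Sal, where 7 had an unadjusted p under 0.05 and limma-voom called 4. In KO-Bleo against WT-Bleo limma also called 0 of the 13, where 3 had an unadjusted p under 0.05 and limma-voom called 1. Gnai2, the main Gi subunit of leukocytes, averaged 162 RPKM in KO-Bleo and 199 RPKM in WT-Bleo (-0.29 on the log2 scale, adjusted p = 0.108), and WT-Bleo was higher than WT-Sal (160 RPKM) by 0.31 (adjusted p = 0.00938). Of 18 listed effectors (adenylyl cyclases, phospholipase C beta forms, ion channels and others) 1 was called higher and 4 lower in KO-Bleo against KO-Sal, and 3 were called lower in WT-Bleo against WT-Sal, where 3 others were higher at an unadjusted p under 0.05. Of 32 listed receptors of vessel wall cells, whose signals Rgs2, Rgs4 and Rgs5 can shorten, 9 were called higher and 5 lower in KO-Bleo against KO-Sal, and 8 higher and 6 lower in WT-Bleo against WT-Sal. Among them P2ry6, a receptor for UDP, rose by 1.02 in KO-Bleo (adjusted p = 0.000102) and by 1.28 in WT-Bleo (adjusted p = 2.5e-05), and Ednrb, an endothelin receptor, fell by 1.06 in KO-Bleo (adjusted p = 0.000438) and by 1.30 in WT-Bleo (adjusted p = 5.41e-06). Of 25 leukocyte receptors, among them ones whose signals Rgs1 and Rgs16 can shorten, 7 were called higher and 4 lower in KO-Bleo against KO-Sal, and 6 higher and 8 lower in WT-Bleo against WT-Sal. RGS4, RGS5 and RGS16 proteins are degraded by the cysteine branch of the N-degron pathway. Of its 7 listed genes, Ubr1, a ubiquitin ligase, fell by 0.42 in WT-Bleo against WT-Sal (adjusted p = 0.00154), and Metap2, a methionine aminopeptidase, rose by 0.22 in KO-Bleo (adjusted p = 0.0218) and by 0.20 in WT-Bleo (adjusted p = 0.0229). None of the 7 was called in KO-Bleo against WT-Bleo by limma or limma-voom or had an unadjusted p under 0.05 there, and Ado, the dioxygenase that oxidises such cysteines, averaged 9.72 RPKM in KO-Bleo and 10.1 RPKM in WT-Bleo.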

How the data were processed

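Whole lung libraries of 4 groups of 4 were analysed from the one table the authors deposited. Its values were taken as RPKM, a unit inferred from the values, since the sources used here do not name it. The submitters' processing notes name bcl2fastq, CASAVA 1.8, TopHat, DESeq and the mm10 build without their roles, and strand use in counting is not stated there. In the deposited RPKM table whole reads per gene could be recovered for 16366 of 16380 genes (99.91%, relative tolerance 6e-08), and these gave each library's read total. Counting error alone limits a value that rests on few reads.

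Comparisons were fitted on all 16380 genes with limma 3.58.1 in R 4.3.3, with trend and robust options, on log2(RPKM + 1), using the libraries of the groups compared (all 16 for the interaction). The Benjamini-Hochberg adjustment ran over every gene in the table, and 0.05 was the threshold. Single genes were also tested by an exact two-sided permutation test. The procedure was tested on simulated data first. All 10 members are named in every comparison, and other lists by counts and by up to 4 genes with the smallest p. The 3 genes most like each member are named by Pearson correlation. The members and lists were chosen with earlier results of these data known. The CCAAT search was added after the sequences were seen. Settings tried beside these were other pseudocounts (0.1 and 5), 2 filters of low genes, limma-voom on reads, median-of-ratios and upper-quartile scaling, quality weights, a spread shared by all groups, the study's own thresholds, and leaving out single or both shallow libraries.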

Additional observations from a re-analysis of the deposited data

Results flagged for a closer look

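The change of Rgs5 with bleomycin differed between the genotypes by an interaction test: knockout minus wildtype was -1.49 on the log2 scale (limma adjusted p = 0.0329), with changes of 0.52 in the knockout and 2 in the wildtype. The call ended with upper-quartile scaling (adjusted p = 0.0752), without both shallow libraries (0.0514) and on leaving out any of several single libraries. The difference also holds the saline one, where the knockout was 0.42 higher and limma did not call it (adjusted p = 0.322).

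Of 40 groups of 4 libraries examined, 2 held a library far from the other 3 by Dixon's ratio, where chance gives about 1 in 20. Rgs16 in WT-Bleo replicate 6 was at 9.92 RPKM (ratio 0.916), a value that rests on 14 reads in a shallow library. Rgs14 in WT-Bleo replicate 8 was at 2.39 RPKM (ratio 0.847), where the other WT-Bleo libraries were at 2.74 to 2.81 RPKM.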

How the results depend on the processing

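Every count of called RGS genes was recomputed with other pseudocounts, filters, scalings, weights, thresholds and tests. The 6 calls in WT-Bleo against WT-Sal stayed within 1.5 times under each setting and were 5 to 7 with 1 library left out. Of all 16380 genes 5066 were called there as reported, 7087 with quality weights and 3878 to 6442 with 1 library left out. In KO-Bleo against WT-Bleo the count of 1 became 3 with limma-voom, with a spread shared by all groups and with quality weights, 2 among genes with at least 10 reads in every library and 2 with the study's thresholds (unadjusted p under 0.05 and 1.5-fold), and 0 with upper-quartile scaling. It was 0 to 1 with 1 library left out. The 1.5-fold cut was applied here on log2(RPKM + 1), where Rgs4 missed it at -0.55. Its ratio of mean RPKM was 0.661, and the study itself listed Rgs4, Rgs5 and Rgs16 as lower. Of all 16380 genes 207 (1.26%) passed these thresholds as applied here. The number of all genes called there was 35 as reported, 581 with limma-voom, 269 with the shared spread, 406 with quality weights, 146 of 9032 with the filter of 10 reads and 3 with upper-quartile scaling. Over the 8 libraries left out in turn that number ran over 0 to 47 of 16380, and was 0 for 4 of them (replicates 5, 7, 13 and 14). In KO-Bleo against KO-Sal the count of 4 became 2 with the filter of 10 reads, under which 6 members were tested, and was 3 to 5 with 1 library left out. With quality weights it became 7, of which 6 were higher and 1, Rgs3, was lower. Of all 16380 genes 3864 were called there as reported, 5320 with quality weights and 2698 to 4073 with 1 library left out. The filter of 10 reads called 2982 of 9032. In KO-Sal against WT-Sal the count of RGS genes was 0 to 1 with 1 library left out, the 1 being Rgs5 without KO-Sal replicate 12, where 722 of all genes were called against 8 with every library. For the interaction the count of 1 became 0 with upper-quartile scaling and without both shallow libraries, 2 with quality weights and 2 with the study's thresholds, and was 0 to 2 with 1 library left out. Of all genes 36 were called in the interaction as reported, 0 with upper-quartile scaling, 27 without both shallow libraries, 136 with quality weights and 3 to 60 with 1 library left out. The cause of these changes was not tested.

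Reversals of sign were all of changes near 0 that no fit called. For Rgs19 in KO-Bleo against WT-Bleo the log2 fold change was -0.0578 with limma-voom, -0.0445 with quality weights and -0.0504 without both shallow libraries. For Rgs2 in KO-Bleo against KO-Sal the same settings gave -0.0492, -0.127 and -0.0819, and for Rgs14 -0.0314, -0.0158 and -0.0444, with -0.0007 at a pseudocount of 5, -0.0087 with median-of-ratios scaling and -0.0236 with upper-quartile scaling. For Rgs14 in KO-Sal against WT-Sal limma-voom gave -0.0097. With 1 library left out, the changes in KO-Bleo against WT-Bleo ran over -0.0038 to 0.11 for Rgs10, -0.092 to 0.18 for Rgs18 and -0.057 to 0.092 for Rgs19. In KO-Bleo against KO-Sal they ran over -0.0903 to 0.20 for Rgs2 and -0.054 to 0.082 for Rgs14. In KO-Sal against WT-Sal they ran over -0.18 to 0.059 for Rgs10 and -0.033 to 0.10 for Rgs14, and in the interaction over -0.0008 to 0.24 for Rgs10.

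Depth limits the values of WT-Bleo replicate 6, which held 4 reads for Rgs14, 7 for Rgs18, 8 for Rgs1, 13 for Rgs10 and 14 for Rgs16. No paired analysis was possible because the labels give the groups no shared replicate numbers. They also name no batch.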
